A study of Caenorhabditis elegans with 2 samples.

Results

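Distal intergenic summits of BLMP-1 are the binding positions that lay away from any protein-coding gene start. They were taken from the thresholded list of reproducible peaks on the ce11 genome build (WBcel235). A summit is the base of highest enrichment within a peak. A summit was kept when it fell on a nuclear chromosome, outside every protein-coding gene of the Ensembl annotation, with the nearest protein-coding transcript start more than 2000 bp away on either side. The rule also left out the window reaching 1000 bp upstream to 200 bp downstream of each start. Of 3031 nuclear summits, 544 met the rule, which is 17.9% (95% Wilson interval 16.6 to 19.4%). They made up 58.3% of the 933 summits outside promoter windows and coding genes. The other classes held 389 intergenic summits nearer to a start, 1513 promoter summits and 585 summits inside coding genes.

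The worms were L2 larvae, hermaphrodites of strain OP109, genotype unc-119(ed3) III with the transgene wgIs109, and whole animals were used for chromatin immunoprecipitation and sequencing. Per the labels, this is a stable transgenic line with a GFP-FLAG tag at the C terminus of BLMP-1. All samples belong to 1 group with 2 biological replicates, numbered 2 and 3. There is no second genotype, stage or treatment, and the control library is not analysed here. Because whole animals were used, a summit gives no cell type, and binding in few cells cannot be told apart from weak binding in many. Neither the transgene's promoter nor its copy number is given in the sources used here. Read depth is unknown, since the files list peaks and not reads, so no floor or counting interval was given for a peak.

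BLMP-1 is the nematode counterpart of mammalian PRDM1 (Blimp-1), a zinc finger transcription factor of the PR domain family. It is known for roles in the larval epidermis, in the timing of developmental events and in the gonad. In C. elegans most regulatory sequence lies close to gene starts, so elements far from any start are of interest as candidate enhancers or as starts of non-coding transcripts. Background of this kind does not say what any single summit here does.

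The sequence around 8 distal summits is printed to show the short words that were counted at all of them. The first 6 hold the word AGTGAAAG or AGCGAAAG, the core of the mammalian PRDM1 consensus, within 50 bp of the summit. The first 5 are every distal summit off the first chromosome that holds the core among the 20 of highest signal, and the lin-14 summit is the one next to a heterochronic gene. The fos-1 summit holds only AAGTGAAA, and the nhr-46 summit only AGACGCAG. Each line gives 101 bp of the RefSeq genome (WBcel235, ce11 coordinates, counted from 1), centred on the summit and read 5′ to 3′ on the named strand. Capitals mark any of the 4 counted words on either strand.
bcl-11, 4634 bp upstream, chrV:6351341-6351441, plus strand: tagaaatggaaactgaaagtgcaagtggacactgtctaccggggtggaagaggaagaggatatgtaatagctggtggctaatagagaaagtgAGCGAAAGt
bcl-11, 3488 bp upstream, chrV:6352487-6352587, minus strand: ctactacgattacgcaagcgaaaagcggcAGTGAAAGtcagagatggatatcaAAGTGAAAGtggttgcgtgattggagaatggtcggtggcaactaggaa
ret-1, 2527 bp upstream, chrV:14849890-14849990, plus strand: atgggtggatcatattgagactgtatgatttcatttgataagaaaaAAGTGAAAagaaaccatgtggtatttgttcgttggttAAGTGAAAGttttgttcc
bcat-1, 2438 bp upstream, chrX:12874992-12875092, plus strand: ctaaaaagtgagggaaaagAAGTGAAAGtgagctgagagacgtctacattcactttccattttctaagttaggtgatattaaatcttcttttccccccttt
atf-2, 2672 bp upstream, chrII:8749264-8749364, minus strand: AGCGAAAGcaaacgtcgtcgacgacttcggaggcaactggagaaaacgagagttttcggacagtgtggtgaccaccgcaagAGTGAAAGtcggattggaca
lin-14, 3840 bp upstream, chrX:11461670-11461770, minus strand: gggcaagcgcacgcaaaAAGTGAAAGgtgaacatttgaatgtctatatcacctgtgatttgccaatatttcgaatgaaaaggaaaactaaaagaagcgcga
fos-1, 3102 bp upstream, chrV:6000449-6000549, minus strand: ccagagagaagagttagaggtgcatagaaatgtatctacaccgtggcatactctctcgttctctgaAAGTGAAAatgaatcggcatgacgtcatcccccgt
nhr-46, 8008 bp upstream, chrIV:5765820-5765920, plus strand: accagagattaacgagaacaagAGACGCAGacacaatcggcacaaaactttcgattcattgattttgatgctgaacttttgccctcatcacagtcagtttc

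At bcl-11 the core sits at the edge of the first window, and the second window holds it at 2 positions, 1 of them near the summit. The atf-2 window holds both forms of the core, 1 of them at its edge. The ret-1 window holds AAGTGAAA at 2 positions, 1 of them running into the core as AAGTGAAAG. AAGTGAAAG is found without a break in the windows of bcl-11 (3488 bp), ret-1, bcat-1 and lin-14. AAGTGAAA and AGTGAAAG share 7 bases and were not counted as separate evidence.

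The PRDM1 core lay within 50 bp of 48 of the 544 distal summits, or 8.82% (95% Wilson interval 6.72 to 11.5%), against 7.09% of all nuclear summits, which include the distal ones. In windows of the same length centred 1000 bp to the left and right of the distal summits, 2 and 7 held it. Promoter summits held it in 6.01% (interval 4.92 to 7.33%), which overlaps the distal interval. In windows centred 100 bp away, the distal count was already down to 5 on the left and 9 on the right. Intervals of this kind cover counting error only and treat summits as independent, although neighbouring summits share a locus.

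The 48 summits held 52 copies of the core, of which 44 read AGTGAAAG and 8 read AGCGAAAG. Copies fell on the plus strand 27 times and on the minus strand 25 times. Their median distance from the summit was 19 bp, and 30 of the 52 lay within 25 bp. The base before the core was A in 28 copies, G in 13, C in 7 and T in 4. The base after it was T in 32, G in 11, C in 6 and A in 3. An A before the core and a T after it were thus the commonest flanking bases. Neither was part of the search for the core, but the counted word AAGTGAAA includes that A. No background for the flanking bases is given here, so these counts are a description.

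The 3 further words came from an earlier scan of these same peaks, so their presence is a description and supports nothing. AAGTGAAA lay at 56 distal summits (10.3%), against 8.71% of all nuclear summits, and in 3 and 5 of the left and right flanking windows. AGACGCAG lay at 45 (8.27%), against 8.05%, with 3 in the left windows and 0 in the right windows. GAGAGAGA, a dinucleotide repeat, lay at 60 (11.0%), against 9.11%, and was also the commonest of the 4 in the flanks, at 9 and 13. At least 1 of the 4 words was found at 165 distal summits, 30.3% (interval 26.6 to 34.3%), against 27.0% of all nuclear summits. The other 379 distal summits held none of them. The core and AAGTGAAA occurred together at 24 distal summits, as their shared bases allow, and AGACGCAG and GAGAGAGA occurred together at 12. The core and AGACGCAG shared 1 summit.

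**Figure D1:**
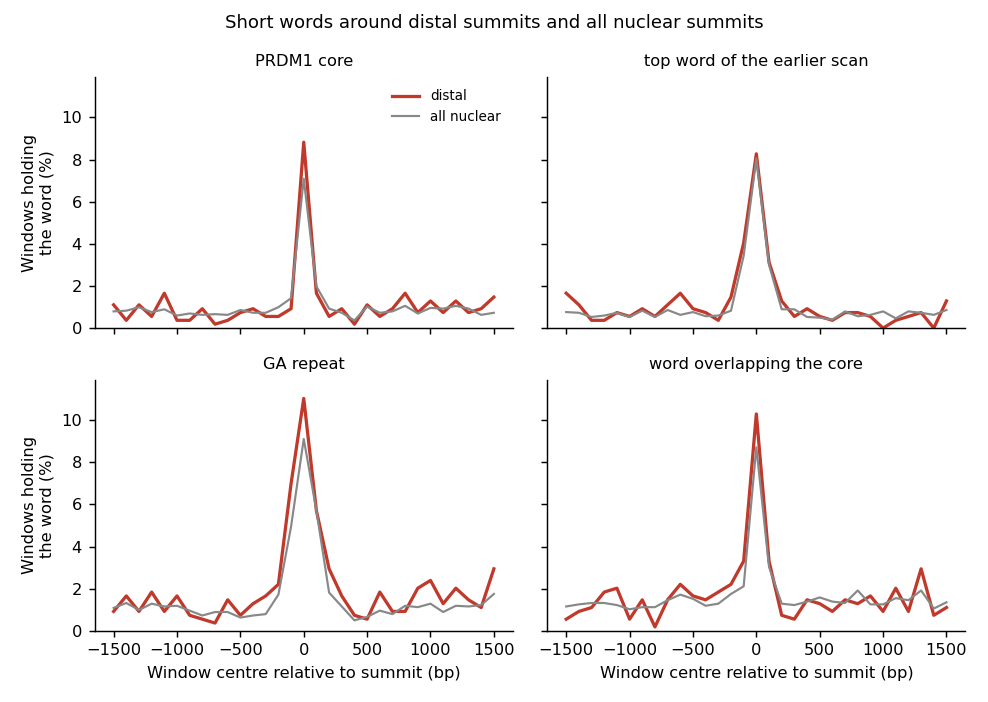
Share of 101 bp windows (vertical axis, percent) that hold each word, by distance of the window's centre from the summit (horizontal axis, bp), for the 544 distal summits in red and all 3031 nuclear summits in grey. The panels show the PRDM1 core, AGACGCAG (top word of the earlier scan), GAGAGAGA (GA repeat) and AAGTGAAA (overlapping the core). Each share is highest at the summit, where the distal values are 8.82%, 8.27%, 11.0% and 10.3%.

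The counts of the words were set against signal. With distal summits ranked by signal and divided into 3 groups, AAGTGAAA was at 31 of the 181 strongest, 16 of the middle 181 and 9 of the weakest 182. The core was at 20, 16 and 12 in the same order, with overlapping intervals (7.27 to 16.5% in the strongest group and 3.81 to 11.2% in the weakest). GAGAGAGA was at 25, 20 and 15, and AGACGCAG at 15, 11 and 19. All nuclear summits divided in the same way had AAGTGAAA shares of 14.4%, 7.23% and 4.55%, core shares of 12.7%, 4.75% and 3.86%, and GAGAGAGA shares of 10.9%, 9.11% and 7.32%. For these 3 words the same order was thus present over all nuclear summits. AGACGCAG differed. Its shares over all nuclear summits were 8.42%, 8.12% and 7.62%, whereas its distal count was highest in the weakest group. The distal intervals, 5.09 to 13.2%, 3.43 to 10.6% and 6.79 to 15.7%, overlap one another, and each holds the matching share of all nuclear summits. The difference in order thus lies within counting error.

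G and C were more frequent at the summit than beside it. The 101 bp at distal summits had a median of 42.6% G and C, against 33.7% in the windows on either side. All nuclear summits had a median of 43.6%, with 35.6% on either side. Soft-masked bases, which the RefSeq genome writes in lower case to mark repeats and simple sequence, took a median of 15.8% of the window at distal summits, against 30.7% on the left and 27.7% on the right. At all nuclear summits the median was 17.8%, with 24.8% on the left and 25.7% on the right.

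The deposited signal value ranks peaks within 1 list, and its scale is the peak caller's own. Distal summits had a median signal of 47.0, with quartiles of 34.4 and 71.9 and a range of 27.1 to 721. All nuclear summits had a median of 44.3, summits nearer to a start within intergenic sequence 41.2, and promoter summits 43.6. The distal median was thus the highest of these. Its interval, 44.1 to 49.6, overlaps those of promoter summits (42.2 to 45.1) and of intergenic summits nearer to a start (39.7 to 45.7). The upper part of the ranking that holds 50.5% of all nuclear summits held 54.6% of the distal ones (interval 50.4 to 58.7%). Of the 100 strongest nuclear summits 26 were distal, which is 4.78% of the distal summits (interval 3.28 to 6.91%), where 3.30% of all nuclear summits are in that set by definition. That 3.30% lies just inside the distal interval. The intervals of promoter summits (2.17 to 3.88%) and of summits inside coding genes (2.36 to 5.43%) overlap the distal one. Of the 20 strongest, 8 were distal, 1.47% of the distal summits (interval 0.747 to 2.87%), against 0.66% of all nuclear summits. They include neighbours at the same locus, ranks 2 and 6 upstream of blmp-1 and ranks 14 and 15 upstream of bcl-11. Of the 500 strongest, 116 were distal, 21.3% of the distal class (interval 18.1 to 25%), against 16.5% of all nuclear summits. The share was 18.8% (interval 15.8 to 22.2%) of summits inside coding genes, which overlaps the distal interval, 14.6% (12.9 to 16.5%) of promoter summits, and 13.6% of intergenic summits nearer to a start.

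**Figure D2:**
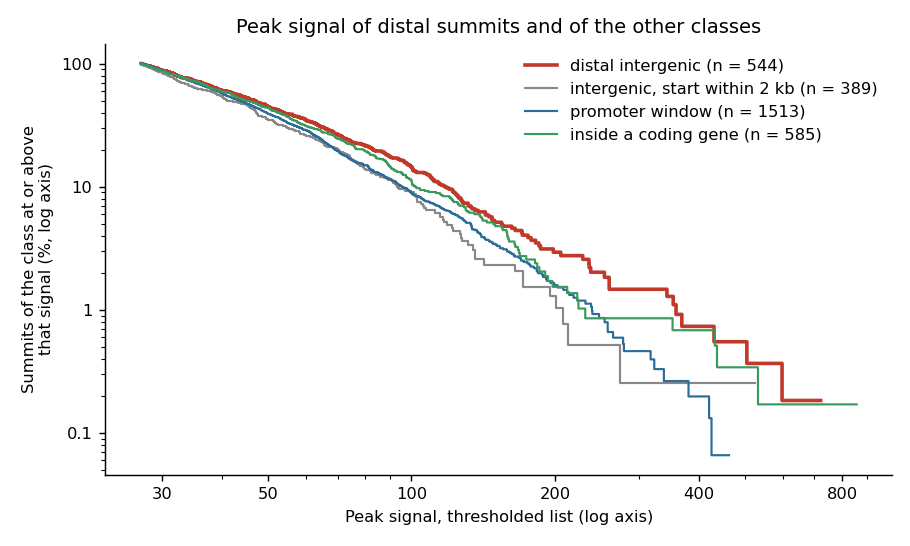
Share of each class at or above a given peak signal (both axes logarithmic), with distal intergenic summits in red (n = 544) and the other classes in grey, blue and green. The curves run together near the medians of 47.0 for distal and 43.6 for promoter summits. The red curve lies above the blue one in the upper tail and ends at 721. The green curve, for summits inside coding genes, ends higher, at 858.

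The replicates listed these positions to different degrees. A summit was counted as found in a replicate when it lay within 100 bp of a summit among that replicate's strongest peaks, taking as many as the thresholded list holds. By this measure 366 distal summits were found in both replicates, 67.3% (interval 63.2 to 71.1%), against 62% of all nuclear summits. Replicate 3 found 473 (86.9%) and replicate 2 found 421 (77.4%). Alone, replicate 2 found 55 and replicate 3 found 107, while 16 were among the strongest peaks of neither. In the full relaxed lists, which hold 19553 peaks for replicate 2 and 25142 for replicate 3, 508 distal summits had a peak in both, 11 only in replicate 2, 24 only in replicate 3, and 1 in neither. Over the 508, the signals of the replicates had a Spearman rho of 0.617, against 0.562 over 2806 nuclear summits. The thresholded list was made from these same replicates, so none of this is independent evidence of binding.

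**Figure D3:**
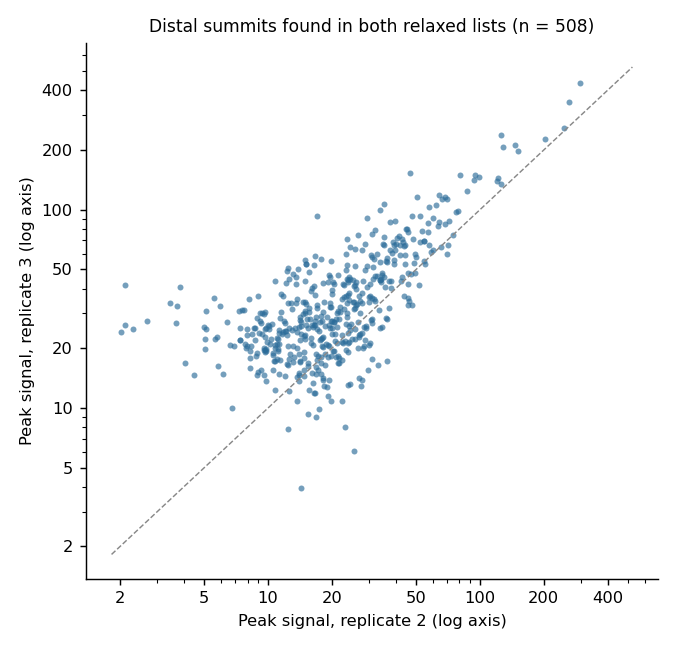
Peak signal of replicate 2 (horizontal) and replicate 3 (vertical) at the 508 distal summits present in both relaxed lists, on logarithmic axes. The dashed line marks equal values. The strongest summits lie close together at the upper right, and a few with replicate 2 signals under 5 have much higher replicate 3 signals.

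The strongest distal summit and 2 others lay between tag-353 and blmp-1, the gene of the immunoprecipitated factor itself. Their positions are I:10405076, I:10406211 and I:10403982, and all 3 lie upstream of blmp-1. The first had a signal of 721, rank 2 of all nuclear summits, with 296 in replicate 2 and 437 in replicate 3. The second, 3091 bp from the blmp-1 start and inside the non-coding RNA gene F25D7.8, had 505, with 248 and 257 in replicates 2 and 3. The third had 260, with 121 and 144. These summits ranked between 5 and 54 in both replicates. The strain carries extra blmp-1 sequence in its transgene, and the part that extra copies play in these values was not tested. Leaving the gap out, 541 distal summits remained and 6 of the 20 strongest nuclear summits were distal.

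Outside that gap the strongest distal summit was I:1273974, rank 3 of all nuclear summits, with a signal of 599, and 263 and 347 in replicates 2 and 3. It lay 941 bp past the end of Y48G8AR.8 and 2458 bp from that gene's start, a gene given no further role here. Its window held the core, GAGAGAGA and AAGTGAAA, and 46.5% of its bases were soft-masked, above the distal median.

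The next of the strongest distal summits are described by the gene they lay upstream of. The summit 3102 bp upstream of fos-1, which encodes the Fos family basic leucine zipper factor known for anchor cell invasion, had a signal of 431, with 202 in replicate 2 and 228 in replicate 3. A summit 2672 bp upstream of atf-2, another basic leucine zipper gene, had 229, with 80.4 and 149. The Schnurri homologue sma-9, a zinc finger factor that acts in the body size pathway, had a summit 2977 bp upstream with 236, of which the replicates gave 98.4 and 145. At bcl-11, 7 summits filled part of a gap of 19905 bp, and the strongest of them had signals of 369 and 359. All 5 of these ranked among the 100 strongest peaks of both replicates, and in each the replicate 3 value was the higher.

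Other genes stood nearest to the rest. A summit at V:14849940, between ret-1 (reticulon) and npr-13, had 354, with 152 and 197 in replicates 2 and 3. One at II:7405478, 2753 bp upstream of nas-7, an astacin family metalloprotease gene, had 343, with 129 and 207. Another lay 2438 bp upstream of bcat-1, which encodes a branched-chain aminotransferase, with 238 in the thresholded list and 93.6 and 142 in the replicates. The summit 3402 bp upstream of lpin-1, the lipin gene of fat metabolism, had 206, with 87.0 and 125. The 20 strongest distal summits ran from 182 to 721, and all 20 were found in both replicates by the measure above. In replicate 2 the lowest rank of any of them was 275, at I:524687, and in replicate 3 it was 127. The 20 were picked on a list made from these replicates, so their ranks are a description. In 14 of the 20 the summit lay upstream of the nearest start.

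**Figure D4:**
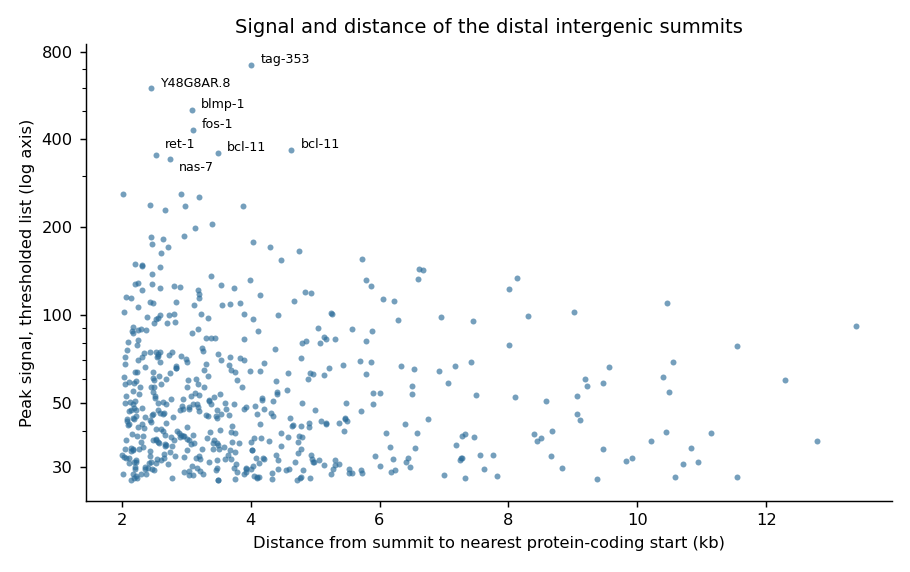
Peak signal (vertical, logarithmic) against distance to the nearest protein-coding start (horizontal, kb) for the 544 distal summits, with the 8 strongest labelled by that gene. All 8 lie within 5 kb of a start, and the farthest summit, at 13386 bp, has a signal of 91.4.

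Distance from the nearest start was set by the rule and is given as a description. Its median was 3461.5 bp, with a range of 2009 to 13386 bp. Beyond 5000 bp there were 129 summits and beyond 10000 bp there were 16. At the edge of the rule, the 3 summits just inside lay 2009, 2023 and 2026 bp from the starts of C01A2.2, K08B5.2 and hpd-1, with signals of 32.9, 260 and 28.5. The 3 just outside lay at 1997, 1997 and 1989 bp from zyg-11, B0019.2 and bli-4, with signals of 31.1, 30.2 and 64.0. The farthest summit, IV:14594425, lay in the gap of 35563 bp between irld-18 and dmd-6, a gene of the DM domain family, with 91.4 in the thresholded list and 45.5 and 48.1 in replicates 2 and 3. By contrast, the summit 11551 bp upstream of the homeobox gene alr-1 was near the bottom of the list, with 27.8, and 8.76 and 18.3 in the replicates.

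The territory that meets the rule covers 16534435 of 100272607 nuclear bases, or 16.5%, close to the 17.9% of summits found in it. Summits were not spread evenly over it. Per Mb of that territory, chromosomes I and II held 43.0 and 42.1 distal summits, X held 36.8 and III 36, and V and IV held 24.7 and 23.1. In number, 144 of the 544 were on X, which is 26.5% (interval 22.9 to 30.3%), against 21.9% of all nuclear summits, and X holds 23.7% of the territory.

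The orientation of the flanking genes followed the territory in part. Distal summits lay between genes in tandem in 303 cases (55.7%), between divergent genes in 190 (34.9%) and between convergent genes in 50 (9.19%), with 1 at a chromosome end. The bases that meet the rule divide into 53.3% tandem, 29.5% divergent and 17.2% convergent. The convergent share of bases lies above the interval of the convergent share of summits, 7.04 to 11.9%. The divergent share of bases lies below the interval of the divergent share of summits, 31.04 to 39.03%. Of all 5126 gaps over 2000 bp, 10.7% were convergent. Some convergent gaps with a distal summit are shorter than that, such as the 382 bp between dyc-1 and lgc-21. The share of gaps is therefore not a matched reference for the summits. The nearest start was downstream of the summit in the direction of transcription, so that the summit lay upstream of the gene, in 389 cases (71.5%). The other 155 lay on the transcribed side of the nearest start, beyond the gene's end. Within 500 bp past the 3′ end of a coding gene lay 35 (6.43%). No share of the territory is given for either side of a start or for 3′ ends. The rule leaves out gene bodies, which lie on the transcribed side, so these shares are a description.

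Distal summits lay alone or together in the gaps between genes. They fell into 382 gaps between coding genes, of which 285 held 1 and 97 held 2 or more, together 258 summits. The gaps that held a distal summit had a median length of 7603 bp, against 4219 bp for all gaps over 2000 bp. The rule itself keeps summits out of short gaps, except where both flanking genes end at the gap. The shortest gap with a distal summit, between dyc-1 and lgc-21, was 382 bp. The first median includes such gaps under 2000 bp, and the second leaves them out. Another distal summit lay within 2000 bp of 176 distal summits (32.4%). No such share for other summits or for the territory is given here, so it does not show clustering particular to distal summits. The largest number, 9, lay in the gap of 18574 bp between snt-1 (synaptotagmin) and egl-27, which encodes an MTA family chromatin factor. Their signals ran from 27.7 to 155. The strongest, 5732 bp upstream of egl-27, had 71.6 in replicate 2 and 87.6 in replicate 3. The one 7424 bp upstream had 68.8 in the thresholded list and 41.1 in replicate 3, with no replicate 2 peak within 100 bp.

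In the gap of 22871 bp between asp-13 and ZC190.4, 7 summits had signals of 32.2 to 108. The gap of 10396 bp between mxl-3 and C49F8.15 held 6, with signals of 37.3 to 236. The gene mxl-3 encodes a Max-like basic helix-loop-helix factor known from the fasting response. The summit nearest to its start, 2839 bp upstream, had 111, with 43.5 and 68.6 in replicates 2 and 3. The one 4034 bp upstream had 178, with 64.1 and 119. Another 6 lay between irld-18 and dmd-6, with signals of 29.5 to 91.4, and 5 of them were on the dmd-6 side. The gap of 26771 bp between C30G12.4 and C30G12.2 also held 6, with signals of 27.8 to 59.9.

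**Figure D5:**
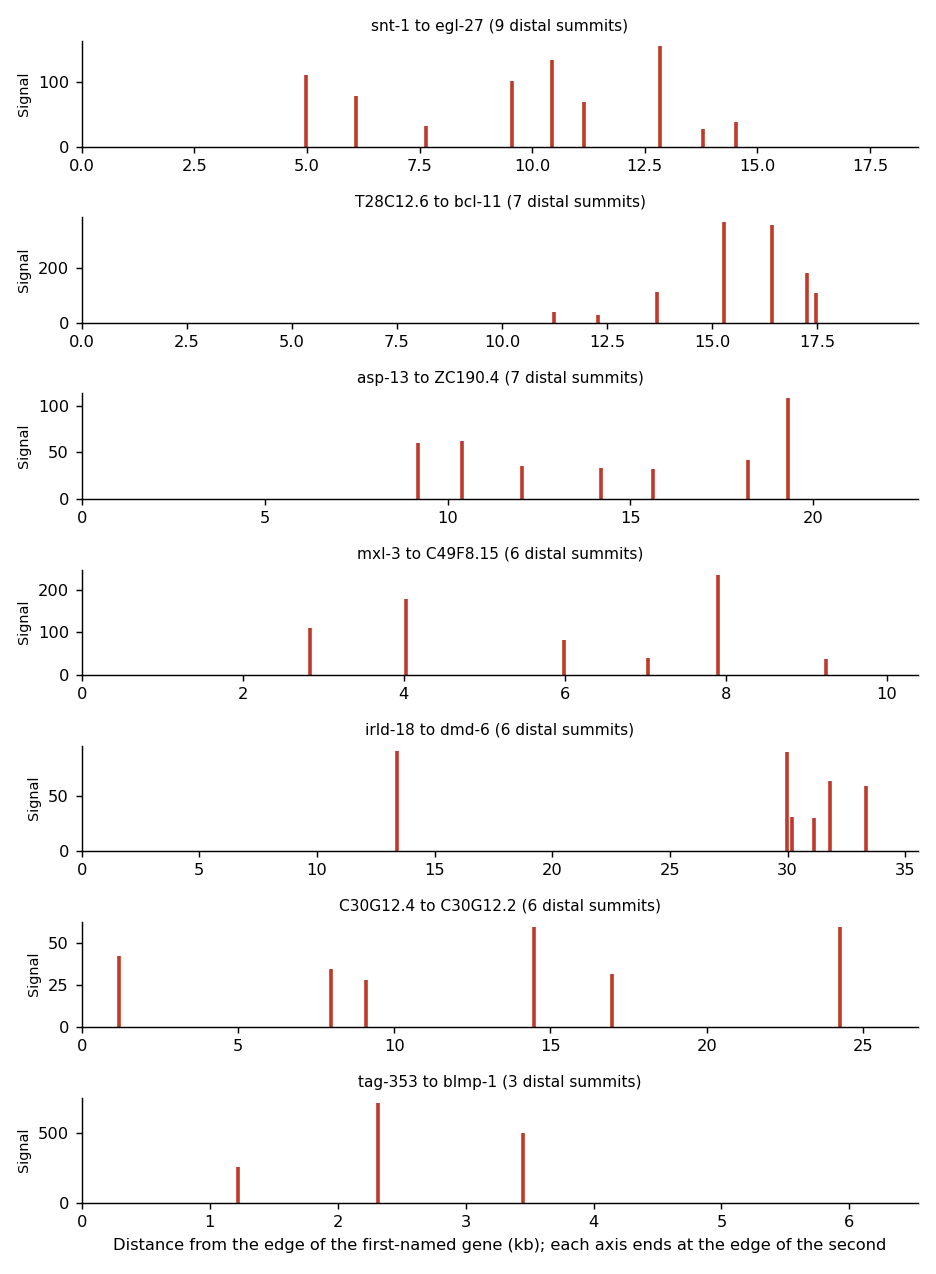
Distal summits in the 6 gaps that hold 6 or more and in the gap upstream of blmp-1, drawn as lines at their distance from the first-named gene (horizontal, kb) with the peak signal as height (vertical, each panel from 0 on its own scale). The snt-1 to egl-27 gap holds 9 summits in its middle, and the 3 summits near blmp-1 reach 721.

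Most genes nearest to a distal summit had no promoter summit, although the share with one was higher than among all coding genes. The nearest starts belonged to 426 genes, of which 84 were nearest to 2 or more distal summits. For 131 distal summits, 24.1% (interval 20.7 to 27.8%), that gene also had a promoter summit. The share over all nuclear summits was 64.6%, which promoter summits raise by construction. Intergenic summits nearer to a start had 22.1% (interval 18.3 to 26.5%), which overlaps the distal interval. Counted by gene, 105 of the 426 (24.6%) had a promoter summit, whereas 1765 of all 19973 coding genes did (8.84%).

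Non-coding genes here are all Ensembl genes that are not protein-coding, which takes in pseudogenes and piRNA genes. The rule did not use these genes. A distal summit lay inside one in 65 cases, 11.9% (interval 9.49 to 14.9%), against 8.55% of all nuclear summits, while such genes cover 14.9% of the territory. Most were of the Ensembl ncRNA class, at 56 summits. Large intergenic non-coding RNA genes were at 9, with linc-156 at the strongest, I:5075661, which had 133 in the thresholded list and 47.5 and 92.8 in replicates 2 and 3. A snoRNA gene and a tRNA gene were at 1 each. A non-coding start other than a piRNA start lay within 1000 bp of 189 distal summits, 34.7% (interval 30.9 to 38.8%), against 27.1% of all nuclear summits and 26.1% of the territory. Without those 189, 355 distal summits remained. Intergenic summits nearer to a start had 28.3% (interval 24.0 to 32.9%) and summits inside coding genes 27.9% (24.4 to 31.6%), which both overlap the distal interval. Promoter summits had 23.8% (21.7 to 26.0%), which does not.

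MicroRNA genes, which encode short RNAs that repress messenger RNAs, stood near some of the distal summits. The distance of 2000 bp was chosen after their positions were seen. At that distance 21 distal summits had a RefSeq microRNA gene nearby, 3.86% (interval 2.54 to 5.83%), against 1.75% of all nuclear summits, and 1.42% of the territory lies that close to one. Summits inside coding genes had 2.05% (interval 1.18 to 3.55%), which overlaps the distal interval. The intervals of promoter summits and of intergenic summits nearer to a start lie below it. The 21 distal summits were near 20 of 260 microRNA genes in 23 pairs. In 17 of the 23 pairs the summit lay upstream of the microRNA. The strongest, II:11881233, lay 194 bp upstream of mir-45 with a signal of 171. A summit 518 bp upstream of mir-73 and 796 bp upstream of mir-74 had 88.6. The summits 242 bp upstream of mir-238, 399 bp upstream of mir-228 and 278 bp upstream of mir-237 had 58.5, 54.1 and 30.2. The summit nearest to any microRNA lay 45 bp past the end of mir-34, with a signal of 32.3.

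Among heterochronic genes, which set the order of larval stages, lin-14 and hbl-1 were the nearest start of 1 summit each. These 2 are 0.368% of distal summits, against 1.02% of all nuclear summits. The lin-14 gene encodes a nuclear factor of early larval fates, and its summit, X:11461720, had 110, with 44.0 in replicate 2 and 65.9 in replicate 3. The Hunchback homologue hbl-1 had a summit 7553 bp upstream with 33 in the thresholded list and 26.9 in replicate 3, and no replicate 2 peak within 100 bp. Another summit, X:5837260, lay 9505 bp from hbl-1 with a signal of 42.8, and its nearest start was that of F13D11.4. Between cbl-1 and lin-41, the TRIM-NHL gene that let-7 represses, lay I:9332641 and I:9330937, with 71.1 and 52.8. They lay past the 3′ side of both genes, and the nearest start was that of cbl-1. Their distances were 2159 and 3863 bp from lin-41, and 1713 and 9 bp from cbl-1. The summit I:9332641 was inside the non-coding RNA gene C12C8.8 and 305 bp upstream of mir-79. Between Y49A3A.4 and unc-39, 3 summits lay near mir-48 and mir-241, microRNAs of the let-7 family. All 3 were upstream of mir-48, and 1 of them lay past the end of mir-241. The strongest, V:14368322, had 165, with 50.3 and 116 in replicates 2 and 3. The summit 383 bp upstream of mir-48 had 54.0, but only 3.70 in replicate 2, where it ranked 11382, against 32.8 in replicate 3. Near mir-84, another let-7 family microRNA, summits 548 and 2404 bp away had signals of 29.6 and 32.7. The summit 3679 bp from kin-20, a casein kinase gene, had 38.6. The lin-4 and let-7 genes had no distal summit within 10000 bp.

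Molting genes were nearest to 9 distal summits at 6 genes, 1.65% against 0.957% of all nuclear summits. The strongest, 3193 bp upstream of noah-1, a zona pellucida protein gene of the precuticle, had 114, with 54.4 and 55.3 in replicates 2 and 3. The nuclear receptor gene nhr-25, a regulator of molting and epidermal fate, had summits 5136 and 2533 bp upstream with 62.3 and 31.0, and 1 past its end with 29.5. A summit 2041 bp upstream of nhr-85 had 61.1. Seam and epidermal factors were nearest to 4 distal summits at 2 genes, 0.735% against 0.495%, and 3 of the 4 are the nhr-25 summits that the molting count also holds. The other gene, egl-18, a GATA factor gene of seam cells, had a summit 10548 bp upstream with 68.8, and 30.1 and 36.1 in the replicates.

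Of the wider factor families, nuclear hormone receptor genes were nearest to 31 distal summits at 21 genes. This was 5.70% (interval 4.04 to 7.98%), against 3.63% of all nuclear summits. Summits inside coding genes had 4.62% (interval 3.19 to 6.63%), which overlaps the distal interval. The list takes in the nhr genes, so the nhr-25 and nhr-85 summits of the molting count are counted here again. The longest such gap, 33430 bp beside nhr-46, held 4 summits. The one 6671 bp upstream of nhr-46 had 143, with 52.3 and 92.7 in replicates 2 and 3. The one 8008 bp upstream, printed above, had 122, with 45.4 and 79.5. Homeobox genes were nearest to 7 at 6 genes, 1.29% against 0.462%, and basic helix-loop-helix genes to 6 at 2 genes, 1.1% against 0.825%. Chemoreceptor genes, a large family of sensory receptors, were nearest to 8, 1.47% against 0.891%, and hold 6.83% of coding genes.

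Other lists had few distal summits. Cuticle collagen genes were nearest to 5, 0.919% against 1.62% of all nuclear summits. The strongest lay 2569 bp upstream of rol-6 with 97.7, and 28.6 and 67.1 in replicates 2 and 3. Cytosolic ribosomal protein genes were nearest to 2, 0.368% against 1.29%, and promoter summits had them in 2.45%. Insulin peptide and signalling genes and neuropeptide genes were nearest to 1 each, 0.184% against 0.726% and 0.363%. Wnt pathway genes and C-type lectin genes were nearest to none, against 0.363% and 0.132% of all nuclear summits. For counts this small the intervals are wide: 0 of 544 has an upper bound of 0.701%.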

How the data were processed

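Peak lists for 2 biological replicates were analysed. The deposited signal values are the peak caller's own score of enrichment, made by the authors, and relaxed lists per replicate and 1 thresholded list on ce11 were used. None of the sources used here gives the aligner, the caller, their versions or the threshold. Summits were classified against Ensembl release 115 (WBcel235), and sequences were read from the RefSeq genome of that assembly. Shares have 95% Wilson intervals. No test was run, since there is 1 group. Words were counted on both strands within 50 bp. Named summits were taken from the 20 strongest, the 10 farthest, up to 4 per gene list and up to 3 per non-coding class. Others came from the 5 gaps with the most summits, and a gap tied with the last of them is also given. The rest came from summits within 10000 bp of a heterochronic gene and at the edges of the rule. Not every summit in these sets is named. The members and gene lists were chosen with earlier results of these data known. The class rule and word search were tested on simulated data. Computation used Python 3.11.15, NumPy 2.4.6, SciPy 1.17.1 and matplotlib 3.10.9. Alternatives varied the annotation, distance, replicate match, word window and peak set.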

Additional observations from a re-analysis of the deposited data

How the results depend on the processing

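Each of the 6 main values was recomputed under the alternatives that bear on it, giving 57 values, of which 43 stayed within the sampling interval, or within 1.5 times for the count. A distance of 3000 bp kept 341 distal summits. Among the 50% of peaks with the highest signal there were 291, with a median signal of 69.8, 94.2% in both replicates and 27.1% with a distal neighbour within 2000 bp. The share found in both replicates was 54.2% within 50 bp, 50.9% by a reciprocal overlap of 50%, and 72.1% by 1 bp. The core share was 4.96% within 25 bp. A distal neighbour was found for 13.6% within 1000 bp and 44.7% within 5000 bp. Chosen after seeing the data, leaving out summits with a non-coding start within 1000 bp kept 355, with 1.13% in a non-coding gene and 19.4% with a neighbour. The RefSeq annotation, also added later, gave 576 summits, including all 544. Leaving out the gap upstream of blmp-1, added later too, gave 541. No paired analysis was possible because all samples belong to 1 group. Depth is unknown, so the values carry no error from read counts.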
